A study of Ambystoma mexicanum with 17 samples.

Results

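The genes for the protein components of the cytosolic ribosome were examined in limb tissue of the axolotl (Ambystoma mexicanum), a salamander that regrows its limbs. Members were the gene IDs named RPL or RPS with a number, the stalk protein genes RPLP0, RPLP1 and RPLP2, and RPSA if present. They were picked by name, under a rule set with earlier results of these data known. This gave 65 of the 122775 gene IDs in the count files, of which 37 belonged to the large subunit, 25 to the small subunit and 3 to the stalk. All 65 passed the filter on low counts and were tested among 19398 genes.

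Polyadenylated RNA was sequenced from forelimbs of animals with the d/d (white) genotype in 17 libraries. Uninjured forelimb tissue gave 3 libraries, blastemas (the outgrowths from which a limb regenerates) of anterior tissue gave 5, and blastemas of posterior tissue gave 4, all of them labelled as having had no treatment. A further 5 libraries came from posterior blastemas treated with 25 uM U0126, which inhibits the kinases that activate ERK. Every blastema had been induced by rerouting a nerve and was collected 10 days after injury together with its wound epithelium, so each library holds mesenchyme, epidermis and other cells. For the untreated blastemas the labels mention both Holtfreter's solution and DMSO without saying which was used. No age or sex is given, nor whether each library is a separate animal, and p-values therefore measure spread between libraries only.

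A ribosome is built from ribosomal RNA and one copy of most of these proteins, so their genes are kept in step with each other in most cells. Their mRNAs belong to the TOP class, which begins with a run of pyrimidines and is held back from translation when growth signalling through mTOR is low. Proliferating cells need new ribosomes for each division, and blastema growth depends on proliferation. ERK and mTOR signalling both act on ribosome production, partly through the assembly factors of the nucleolus and partly through translation of the TOP mRNAs, which a measurement of RNA levels does not see.

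Libraries held 34181446 to 53856865 counts in genes. In 2 libraries, labelled uninjured replicate 1 and inhibitor replicate 5, the blastema matrix gene TNC stood apart from the rest of the group. In CPM, which are counts scaled to a library of 1000000, TNC stood at 1329 in uninjured replicate 1 and at 71.6 and 78.4 in replicates 2 and 3. It stood at 102 CPM in inhibitor replicate 5, with replicates 1 to 4 between 444 and 1135 CPM. Untreated posterior libraries were between 1143 and 1857 CPM. Inhibitor replicate 5 was thus the furthest from the untreated libraries, and replicate 4, which was kept throughout these settings, the nearest. The 12 marker genes of blastema mesenchyme in the files, TNC among them, did not set these libraries apart in the same way. Their sum was 4182, 1765 and 3642 CPM in uninjured replicates 1 to 3. In inhibitor replicates 1 to 5 it was 1901, 2772, 1946, 5161 and 2556 CPM. Results that rest on uninjured replicate 1 or inhibitor replicate 5 are given with and without them, a setting chosen after the data were seen. Excluding RPL3L, every member had at least 4909 reads in every library and none had more than 139355, so sampling error was small beside the differences between libraries.

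Ribosomal protein mRNAs took between 4.50% and 7.28% of all counts in genes. The share was 4.50%, 6.16% and 7.28% in uninjured replicates 1 to 3. It was 4.93%, 5.19%, 5.22%, 5.98% and 5.38% in anterior replicates 1 to 5. The lowest and the highest of all shares were thus both in uninjured tissue, and the anterior values lay inside that range. In posterior blastemas the share was 5.70%, 5.84%, 5.39% and 5.87%. With the inhibitor it was 4.81%, 4.81%, 5.06%, 4.94% and 6.13%. Inhibitor replicates 1 to 4 lay below every untreated posterior library, and inhibitor replicate 5 lay above all of them. Group means were 5.98% ± 1.40 (SD, n = 3) in uninjured, 5.34% ± 0.394 (n = 5) in anterior, 5.70% ± 0.219 (n = 4) in posterior and 5.15% ± 0.559 (n = 5) in inhibitor-treated tissue, so differences between means were smaller than the spread within uninjured tissue. The 95% Wilson interval of a library's share reached at most 0.00786 percentage points to either side, which covers counting error only. In bulk tissue, fewer cells with many of these mRNAs and fewer of the mRNAs per cell cannot be told apart.

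**Figure D1:**
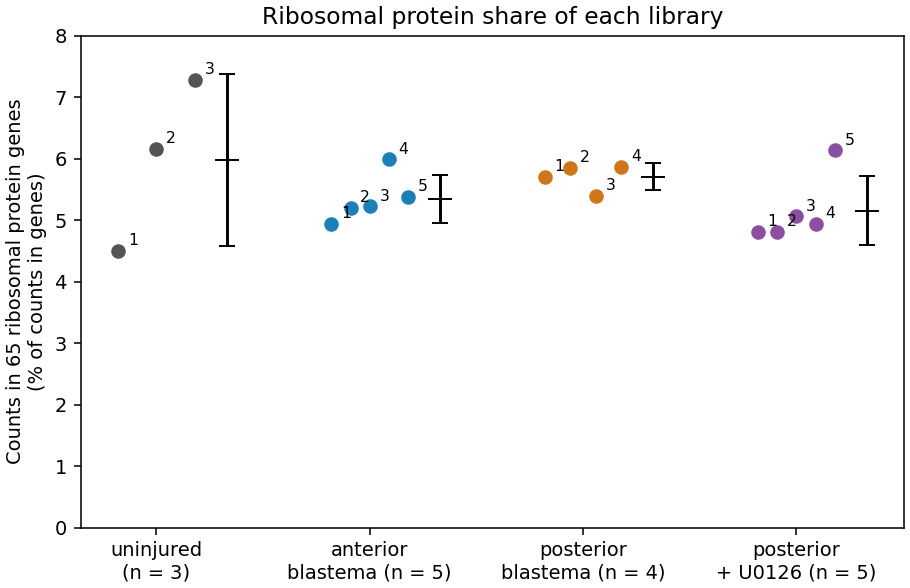
Percent of counts in genes that fell on the 65 ribosomal protein genes (vertical axis) in each library, by group; points are libraries with their replicate number, and the bar is the group mean ± SD. Uninjured libraries span 4.50% to 7.28%, and inhibitor replicate 5 at 6.13% stands above the other inhibitor libraries.

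Within a library the genes moved as a block. For each gene the log2 CPM was taken relative to the gene's own mean over the 17 libraries, and the median of these deviations over the 64 members other than RPL3L was called the offset of the library. Uninjured replicates 1, 2 and 3 had offsets of -0.23, 0.22 and 0.64. All 64 genes were above their own mean in uninjured replicates 2 and 3, anterior replicate 4, posterior replicate 4 and inhibitor replicate 5. None of the 64 was above its mean in uninjured replicate 1, anterior replicates 1 and 2 or inhibitor replicate 4.

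Anterior replicates 1 to 5 had offsets of -0.26, -0.17, -0.02, 0.14 and -0.02. Posterior replicates 1 to 4 had offsets of -0.06, 0.01, -0.08 and 0.17. Inhibitor replicates 1 to 5 had offsets of -0.19, -0.15, -0.10, -0.24 and 0.31. In each of the 4 groups a library with all 64 genes above their mean was found beside libraries without, and the 3 blastema groups overlapped. Library names of anterior and uninjured replicates 1, 2 and 3 share a stem, number by number, which the labels do not explain, and the anterior library had the lower offset in each of the 3 pairs. Over the 17 libraries the offset had an SD of 0.234, and a member had a median SD of 0.240 on the log2 scale. With the offset taken off, the median SD of a member was 0.0504. Over all 19398 tested genes the median SD before this step was 0.447, and 23.8% of genes had an SD below that of the median member.

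**Figure D2:**
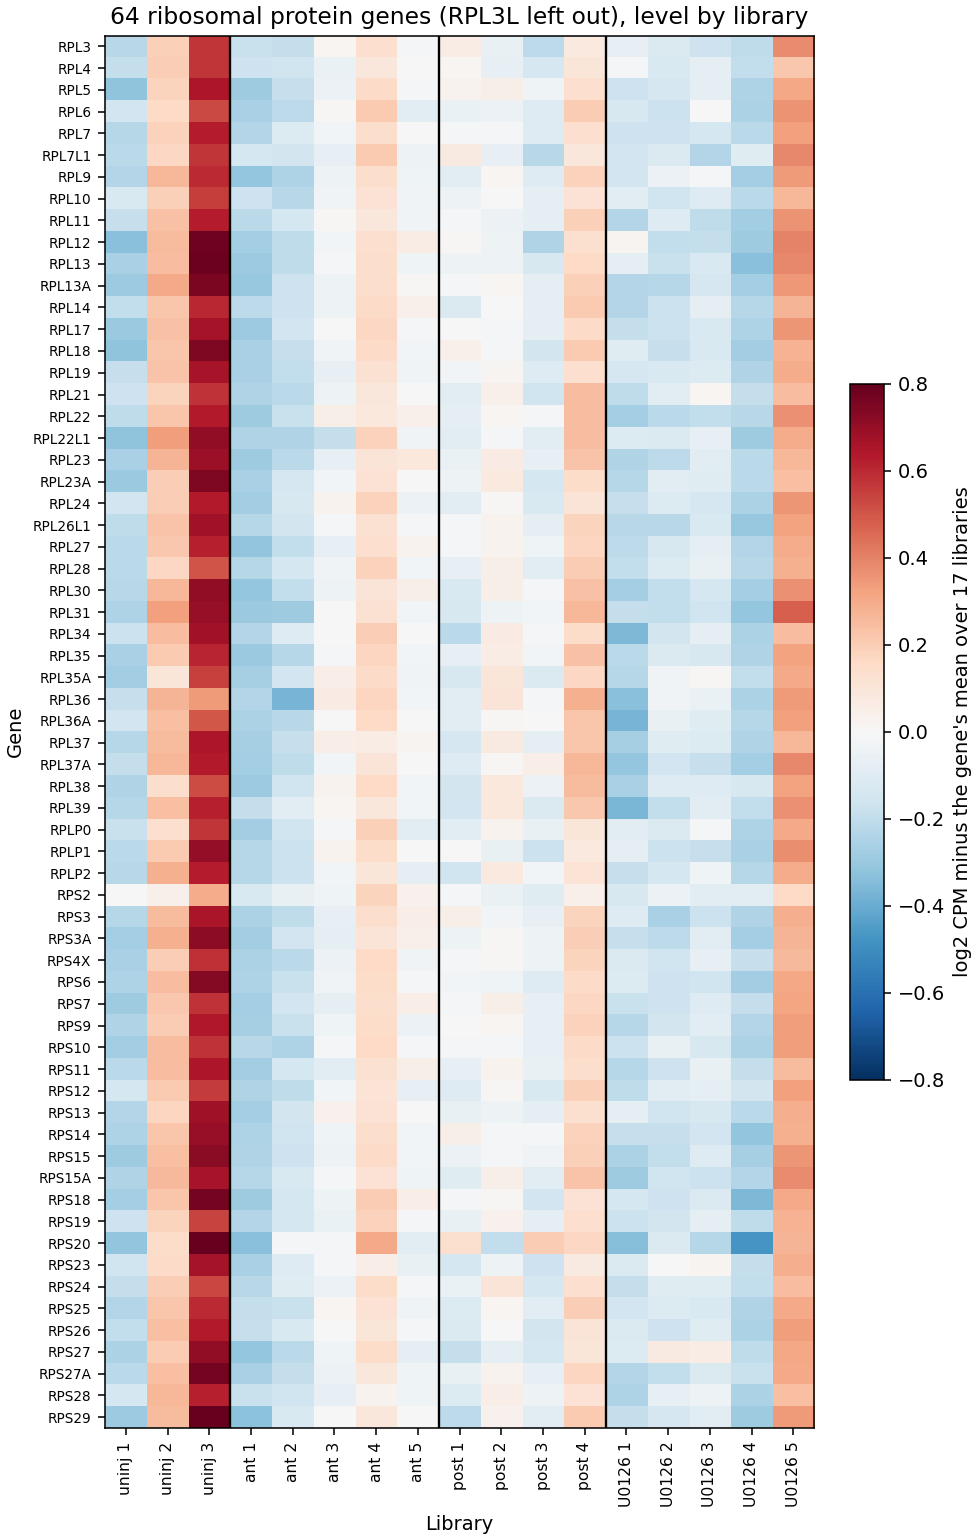
Level of 64 ribosomal protein genes (rows, RPL3L left out) in 17 libraries (columns), as log2 CPM minus the gene's mean over all libraries; red is above and blue below that mean. Whole columns share a colour, with uninjured replicate 3 (offset 0.64) the most raised.

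The library with the highest offset in each of the 4 groups had the lowest summed level of the cell cycle marker genes (14 of the 17 listed were in the files). Among uninjured libraries the cell cycle genes summed to 1466, 958 and 695 CPM in replicates 1 to 3. In anterior blastemas replicate 4 was lowest at 1048 CPM, against 1266 to 1435 CPM in the others. In posterior blastemas replicate 4 was lowest at 773 CPM, against 1231 to 1302 CPM. In inhibitor-treated blastemas replicate 5 was lowest at 1023 CPM, against 1129 to 1493 CPM. None of the 14 genes was at 0 in any library. In uninjured tissue the markers of other cells also moved with the offset: Schwann cell genes summed to 98.8, 369 and 678 CPM, and skeletal muscle genes took 0.133%, 1.55% and 3.01% of counts in replicates 1 to 3. Their part in the ribosomal protein levels was not tested.

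Anterior blastemas were set against uninjured forelimb to ask how ribosomal protein mRNAs stand in an early regenerate. The log2 fold change was below 0 for all 65 members, with a median of -0.32, against a median of -0.02 and 51.4% of genes below 0 over all tested genes. None of the 65 passed an adjusted p of 0.05 in edgeR's quasi-likelihood test, where 0.139% of all genes were called lower and 0.067% higher. At an unadjusted p under 0.05 there were 6 members, namely RPL3L, RPS27A, RPS28, RPL19, RPLP2 and RPS23, or fewer as a share than the 21.5% of all genes. DESeq2 called more genes, 5.19% lower and 3.97% higher, and among members it called 1 lower, RPL3L, with an adjusted p of 0.0172. A fit with the replicate number as a block held only replicates 1 to 3 of the anterior and uninjured groups. It called the same 1 member, where 0.309% of all genes were called lower. Without RPL3L, log2 fold changes ran from -0.40 to -0.11. At the low end were RPS27A, made as a fusion with ubiquitin, at -0.40 ± 0.18 (SE, edgeR adjusted p = 0.205), and RPL31 at -0.40 ± 0.20 (adjusted p = 0.267). At the other end were RPL28 at -0.22, RPL35A at -0.20 and RPS2 at -0.11.

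RPS6, the small subunit protein phosphorylated by the S6 kinases below mTOR and by the RSK kinases below ERK, shows the spread behind these values. It was at 935, 1313 and 1843 CPM in uninjured replicates 1 to 3. It was at 935, 982, 1087, 1226 and 1103 CPM in anterior replicates 1 to 5. The uninjured libraries other than replicate 1 were above every anterior library, and replicate 1 was level with the lowest. The groups overlapped for all 65 members, whereas over all genes the anterior group was lower throughout for 4.9% and higher throughout for 5.8%.

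Without uninjured replicate 1 and inhibitor replicate 5, the anterior group was lower for 61 of the 65 members at an adjusted p under 0.05 in edgeR's test, where 10.7% of all genes were called lower and 12.1% higher. The 4 members not called were RPL38, RPL35A, RPL36 and RPS2. The median log2 fold change was then -0.51, RPS6 was at -0.56 ± 0.13 (SE, adjusted p = 0.00870), and groups did not overlap for 56 members, against 19.3% of all genes. This setting leaves 2 uninjured libraries and drops the uninjured library with the lowest offset, which favours lower values in the anterior group. Members also move as a block, so these counts are close to 1 observation. With uninjured replicate 1 alone left out, 47 members were called lower, where 8.55% of all genes were called lower and 9.98% higher. Without uninjured replicate 3 instead, the median was -0.07. In that fit 0 members were called, as were 0 of all 19737 genes tested. Under scaling by total counts the median over all genes moved to 0.12 and that of the members to -0.17, with 64 of 65 below 0.

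Posterior blastemas compared with the same uninjured libraries gave a median of -0.24 over the members, against -0.02 over all genes, with all 65 below 0. Apart from RPL3L the lowest values were -0.35 for RPS27 and -0.33 for RPL12, and the highest were -0.15 for RPS2, -0.13 for RPL38 and -0.08 for RPL36. None was called by edgeR, where 1.24% of all genes were called lower and 0.866% higher, none had an unadjusted p under 0.05, and DESeq2 called 0, with 5.23% of all genes lower and 5.87% higher. RPS6 was at 1091, 1083, 1032 and 1233 CPM in posterior replicates 1 to 4, inside the uninjured range. The groups overlapped for all 65 members, against 7.72% of all genes lower and 8.94% higher throughout. Without uninjured replicate 1 and inhibitor replicate 5, 40 members were called lower, where 6.36% of all genes were called lower and 9.35% higher, and the median was -0.42. Groups then did not overlap for 55 members, against 18.9% of all genes. Here too 2 uninjured libraries remained and members move as a block, so these counts are close to 1 observation. Inhibitor replicate 5 belongs to neither group and enters only through the shared model. With uninjured replicate 1 alone left out, the median was -0.43 and 0 were called, where 3.52% of all genes were called lower and 6.24% higher. The smallest edgeR adjusted p among members was then 0.0509, and 56 had an unadjusted p under 0.05, against 29.7% of all genes. Without uninjured replicate 3 the median was 0.00465 and 37 of 65 members were above 0. Under scaling by total counts the median was -0.07 with 6 members above 0, and that over all genes 0.14. The comparisons of anterior and posterior blastemas with uninjured tissue share the uninjured libraries, so they carry the same spread.

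Between posterior and anterior blastemas the members were close to level. The median log2 fold change of posterior against anterior was 0.08, against -7.34e-05 over all genes, with 64 of 65 above 0 and RPS2 below. None was called by edgeR, where 0 genes were called higher and 0.00516% lower, and DESeq2 called 0 members, with 0.465% of all genes higher and 0.191% lower. The fit with the replicate block, on replicates 1 to 4 of both groups, called 0 members, where 0.0109% of all genes were called lower. The fit without the libraries that stood apart called 0, where 0.00506% were. In the block fit the joined libraries had no known link, since the names of these groups share no stem. At an unadjusted p under 0.05 there was 1 member, RPL3L. The other 64 members ran from -0.03 to 0.14, with RPL36 and RPL37A at the top. These differences were smaller than the SD of the offset within the anterior group, 0.154. The SD within the posterior group, 0.112, was larger than the median difference but smaller than the highest, 0.14. Without posterior replicate 4 the median was 0.02, so over 1.5 times smaller.

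Inhibition of the ERK pathway in posterior blastemas was accompanied by small differences of mixed size. The median log2 fold change of inhibitor-treated against untreated posterior blastemas was -0.08, against -0.00222 over all genes, with 60 of 65 members below 0. None was called by edgeR, where 3.99% of all genes were called lower and 4.13% higher, none had an unadjusted p under 0.05, and DESeq2 called 0, with 7.83% of all genes lower and 7.82% higher. The replicate block, on replicates 1 to 4 of both groups, gave 0 members, where 0.0221% of all genes were called lower and 0.105% higher. Library names of these groups share no stem, so the block joined libraries with no known link. With the inhibitor RPS6 was at 1026, 988, 994, 913 and 1377 CPM. Replicates 1 to 4 were below every untreated posterior library and replicate 5 was above all of them. Without posterior replicate 4 the median over members was -0.02. Under scaling by total counts it was -0.16, against -0.08 over all genes.

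Without uninjured replicate 1 and inhibitor replicate 5, the inhibitor was still accompanied by 0 calls among members, against 5.92% of all genes called lower and 7.1% higher. The median was then -0.18, the smallest adjusted p was 0.0838, and 12 members had an unadjusted p under 0.05, against 29.9% of all genes. The inhibitor group lay below the untreated group throughout for 26 members, against 9.23% of all genes. Among them were RPS6, RPS14, RPL5 and RPL11. The library left out was the only inhibitor library with a raised offset, which favours such a separation. Members also move as a block, so the count is close to 1 observation. By its offset, inhibitor replicate 5 held 1.24 times the average ribosomal protein level and the other inhibitor libraries 0.847 to 0.931 times.

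**Figure D3:**
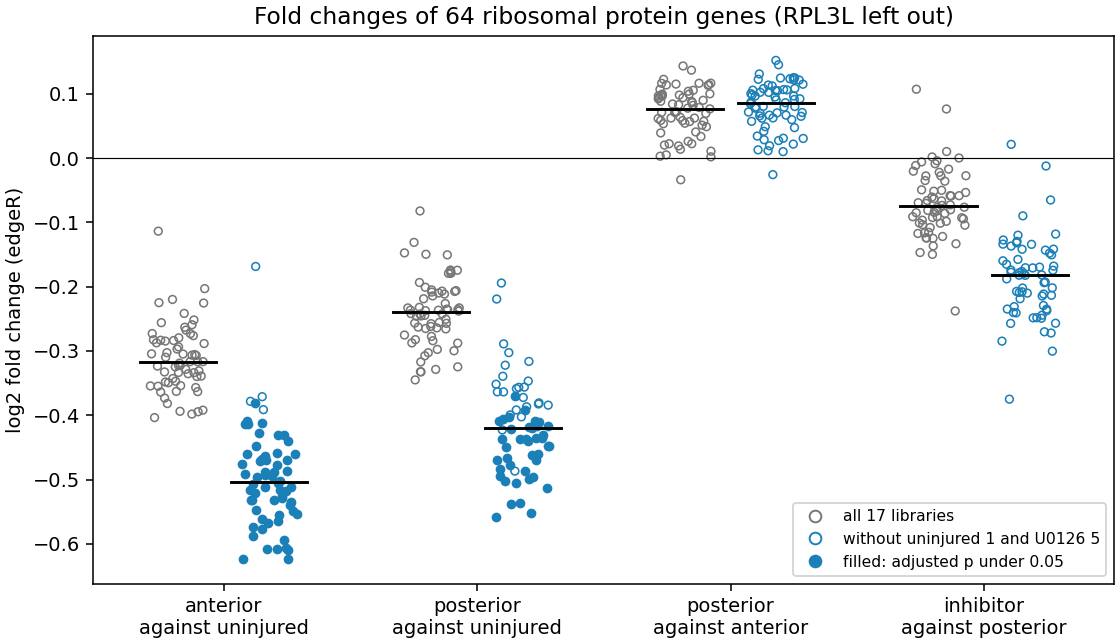
edgeR log2 fold change of 64 ribosomal protein genes (RPL3L left out) in the 4 comparisons, with all 17 libraries (grey) and without uninjured replicate 1 and inhibitor replicate 5 (blue); filled points have an adjusted p under 0.05 and bars are medians. Filled points appear in the 2 comparisons with uninjured tissue and in blue alone.

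Large and small subunit genes had like fold changes and a steady ratio. The summed CPM of large subunit genes divided by that of small subunit genes was 1.23 ± 0.015 (SD, n = 3) in uninjured tissue, 1.23 ± 0.017 (n = 5) in anterior, 1.24 ± 0.017 (n = 4) in posterior and 1.24 ± 0.019 (n = 5) in inhibitor-treated blastemas. Median log2 fold changes of large and small subunit genes were -0.31 and -0.33 in anterior against uninjured tissue. They were -0.08 and -0.07 in inhibitor-treated against untreated posterior blastemas.

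The stalk proteins RPLP0, RPLP1 and RPLP2 form the arm of the large subunit that recruits elongation factors. RPLP0 was at 1494, 1857 and 2516 CPM in uninjured replicates 1 to 3, and between 1394 and 1929 CPM in the anterior libraries. It was between 1591 and 1806 CPM in posterior and between 1425 and 2085 CPM in inhibitor-treated blastemas. All groups overlapped. RPLP1 had a log2 fold change of 0.00186 ± 0.166 (SE) in posterior against anterior blastemas.

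RPL5 and RPL11 form a complex with a small ribosomal RNA and, when ribosome assembly stalls in mammalian cells, bind MDM2 and so stabilise p53. RPL5 was at 1202 ± 396 CPM (SD, n = 3) in uninjured, 985 ± 116 (n = 5) in anterior, 1065 ± 52.1 (n = 4) in posterior and 996 ± 161 (n = 5) in inhibitor-treated tissue. RPL11 was at 1528 ± 427, 1227 ± 102, 1289 ± 110 and 1210 ± 240 CPM in the same order. Both were called lower in anterior blastemas without the libraries that stood apart, at -0.49 ± 0.13 (SE, adjusted p = 0.0147) and -0.50 ± 0.11 (adjusted p = 0.00899). RPL38, needed in mice for translation of certain Hox mRNAs and for patterning of the axial skeleton, was at 225 ± 58.9, 193 ± 22.9, 206 ± 25.2 and 194 ± 31.9 CPM. It was 1 of the 4 members not called lower in anterior blastemas without the libraries that stood apart.

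Paralogs were set against the classical protein they resemble. RPL22L1, a paralog of the RNA-binding protein RPL22, was at 1.75 ± 0.145 times the CPM of RPL22 in uninjured tissue. The ratio was 1.67 ± 0.146 in anterior, 1.69 ± 0.0400 in posterior and 1.79 ± 0.132 in inhibitor-treated blastemas. RPL7L1, whose human protein works in the nucleolus in assembly of the large subunit, was at 0.103 ± 0.00216, 0.105 ± 0.00494, 0.103 ± 0.00641 and 0.107 ± 0.00563 times the CPM of RPL7. Group ranges overlapped for both ratios. Transcript lengths were not used here, so these ratios compare groups and not the levels of the genes with each other.

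RPL3L stood apart from every other member. In mammals it replaces RPL3 in ribosomes of heart and skeletal muscle. It had 47, 1784 and 4026 reads in uninjured replicates 1 to 3, or 1.13, 44.1 and 109.8 CPM. It had 0, 4, 6, 193 and 93 reads in anterior replicates 1 to 5, the highest of these being 4.75 CPM. In posterior blastemas it had 202, 447, 1657 and 1530 reads, or 4.24, 12.2, 38.7 and 33.4 CPM. With the inhibitor it had 25, 351, 1761, 70 and 419 reads, or 0.586, 7.40, 38.2, 1.71 and 10.8 CPM. Anterior blastemas held least, and uninjured replicate 1 lay inside the anterior range while 2 of the 3 uninjured libraries lay above it.

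The edgeR log2 fold change of RPL3L in anterior against uninjured tissue was -5.21 ± 1.59 (SE, adjusted p = 0.0982). It was -5.78 ± 1.59 (adjusted p = 0.0215) without the libraries that stood apart. Posterior against anterior blastemas gave 3.99 ± 1.48 (adjusted p = 0.426), higher in 3 of 4 posterior libraries than in any anterior library. Inhibitor-treated against untreated posterior blastemas gave -0.91 ± 1.34 (adjusted p = 0.737). Skeletal muscle genes (17 of the 25 listed were in the files) took 0.0307% to 0.453% of counts in anterior, 0.290% to 1.78% in posterior, 0.0905% to 1.62% in inhibitor-treated and 0.133% to 3.01% in uninjured libraries, with MYOZ1 and NEB at 0 in anterior replicate 1, ACTN3 at 0 in anterior replicate 2 and none at 0 elsewhere. Their part in the level of RPL3L was not tested. RPL3 itself was at 2803 ± 759, 2347 ± 222, 2370 ± 217 and 2386 ± 431 CPM in uninjured, anterior, posterior and inhibitor-treated tissue.

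**Figure D4:**
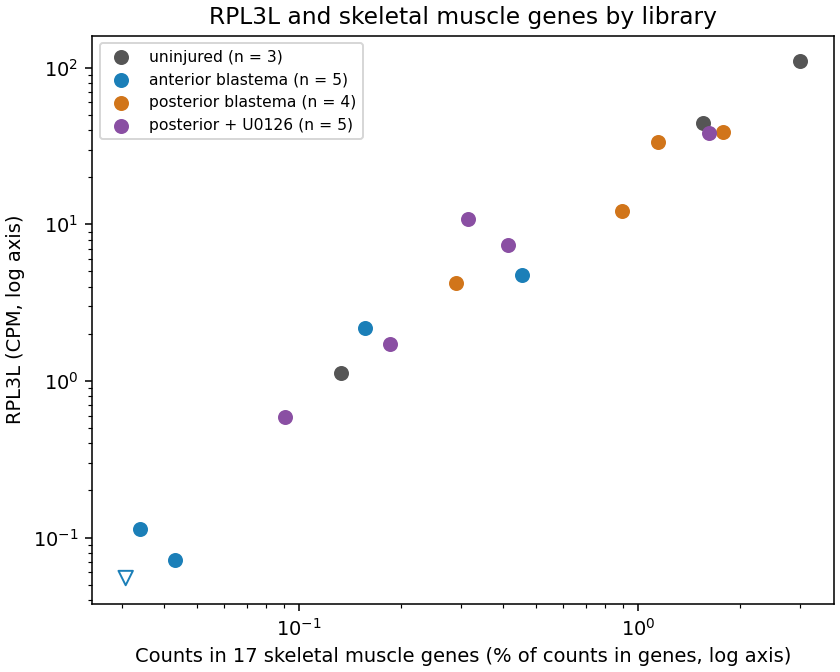
RPL3L in CPM (vertical, log axis) against the percent of counts in 17 skeletal muscle genes (horizontal, log axis) in 17 libraries coloured by group; the open triangle is anterior replicate 1, with 0 RPL3L reads, drawn at its floor of 3 counts (0.0552 CPM). Libraries with few muscle counts held little RPL3L, down to the anterior libraries at 0.0307% to 0.0430%.

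A few members departed from the block. RPS20, RPS2 and RPL36 were the 3 of 64 whose SD stayed above 0.1 once the offset was taken off, at 0.159, 0.140 and 0.114. RPS2, which lies at the entry of the mRNA channel, varied least of all before this step, with an SD of 0.116. It was at 2621, 2706 and 3231 CPM in uninjured replicates 1 to 3 and between 2416 and 2983 CPM in anterior blastemas. Its log2 fold changes were -0.11 ± 0.10 (SE) in anterior and -0.15 ± 0.11 in posterior against uninjured tissue, the smallest or among the 3 smallest in size. RPS20 varied most, with an SD of 0.333. It reached 1696 CPM in uninjured replicate 3 against 722 and 993 CPM in replicates 1 and 2, and had a log2 fold change of -0.24 ± 0.21 (adjusted p = 0.549) with the inhibitor.

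The 3 members with the highest log2 fold change in inhibitor-treated against untreated posterior blastemas were RPS27 at 0.11 ± 0.16 (SE), RPS23 at 0.08 ± 0.14 and RPL3 at 0.01 ± 0.15. RPS27 carries a zinc finger and sits on the solvent side of the small subunit. It was at 603, 654, 624 and 734 CPM in untreated posterior replicates 1 to 4. It was at 638, 721, 716, 596 and 850 CPM with the inhibitor, and the groups overlapped. Relative to the offset of its library, RPS27 was at 0.912 to 0.959 times its own average in untreated and 1.0005 to 1.1617 times in inhibitor-treated posterior blastemas. RPS23 was at 0.935 to 0.966 and 0.990 to 1.107 times. These were the 2 of 64 members whose groups did not overlap after the offset was taken off, both higher. With the same offset taken off every tested gene, 5.09% of all genes were higher and 3.19% lower without overlap. The count is not above these shares. The offset was made from the members, so all genes are not a like background for them. When counts were scaled to the ribosomal protein genes themselves, a setting chosen after the data were seen, RPS27 had a log2 fold change of 0.19 ± 0.11 (edgeR adjusted p = 0.362). In that fit 0 members were called in any comparison, while the inhibitor comparison called 0.495% of all genes higher and 0.16% lower. The other 3 comparisons called at most 0.00516% of genes.

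Other components of the translation machinery were followed as lists. FAU and RACK1, ribosomal proteins that the naming rule misses, had values like those of the members. Their log2 fold changes in anterior against uninjured tissue were -0.32 ± 0.16 and -0.31 ± 0.17 (SE), and those with the inhibitor were -0.13 ± 0.14 and 0.01 ± 0.16. Neither was called by edgeR with all libraries. Without uninjured replicate 1 and inhibitor replicate 5, both were called lower in anterior and in posterior blastemas, where 10.7% and 6.36% of all genes were. With uninjured replicate 1 alone left out, both were called lower in anterior blastemas and neither in posterior blastemas. These settings leave 2 uninjured libraries. FAU was at 445, 640 and 775 CPM in uninjured replicates 1 to 3 and between 452 and 557 CPM in anterior blastemas. Other mRNAs of the TOP class, 21 of 22 listed, had medians of -0.22 in anterior and -0.18 in posterior against uninjured tissue. Of these, 19 and 15 were below 0. With all libraries 0 were called in either, where 0.139% and 1.24% of all genes were called lower. Without uninjured replicate 1 and inhibitor replicate 5, 9 were called lower and 1 higher in anterior blastemas, against 10.7% and 12.1% of all genes. In posterior blastemas 6 were called lower and 1 higher, against 6.36% and 9.35% of all genes. EEF2, which moves the ribosome along the mRNA, was at -0.16 ± 0.13 in anterior against uninjured tissue with all libraries.

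With all libraries HNRNPA1, an RNA-binding protein that shuttles between nucleus and cytoplasm, was the 1 TOP mRNA of 21 called by edgeR. It was lower with the inhibitor, where 3.99% of all genes were called lower, so the count is near the background. It was at 1169, 1043, 886 and 875 CPM in untreated posterior replicates 1 to 4. It was at 636, 800, 648, 813 and 564 CPM with the inhibitor. The groups did not overlap, and the log2 fold change was -0.52 ± 0.14 (SE, adjusted p = 0.0380). The adjusted p ran from 0.0210 to 0.132 when single libraries were left out, and the call was lost in 6 of 9 such fits.

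Most genes for ribosome assembly had log2 fold changes above 0 in both comparisons with uninjured tissue. Of 60 listed genes in the files, 47 had a log2 fold change above 0 in anterior and 45 in posterior against uninjured tissue, with medians of 0.15 and 0.12, against 48.6% and 48.2% of all genes above 0. By edgeR 0 were called in anterior and 1 in posterior blastemas. The called gene was MDN1, the large ATPase that strips assembly factors from the maturing large subunit. It was at 57.7, 50.7 and 59.3 CPM in uninjured tissue and at 106, 93.6, 88.9 and 63.9 CPM in posterior blastemas, without overlap. Its log2 fold change was 0.66 ± 0.15 (SE, adjusted p = 0.0392), a call lost in 5 of 7 fits that left out 1 library. Without the libraries that stood apart, 28 assembly genes were higher and 2 lower in anterior blastemas, against 12.1% and 10.7% of all genes. In posterior blastemas 22 were higher and 1 lower, against 9.35% and 6.36% of all genes. This setting was chosen after the data were seen and leaves 2 uninjured libraries. It moved the medians of the list to 0.32 and 0.28, so the higher calls depend on which uninjured libraries are kept.

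With the inhibitor 2 of the 60 assembly genes were called, both higher, where 4.13% of all genes were called higher, so this count is near the background. POLR1D, a subunit shared by RNA polymerases I and III, had a log2 fold change of 0.36 ± 0.09 (SE, adjusted p = 0.0271). NOC3L, a nucleolar factor of large subunit assembly, was at 30.5 ± 0.966 CPM (SD, n = 4) in untreated and 40.0 ± 5.06 CPM (n = 5) in inhibitor-treated posterior blastemas, a log2 fold change of 0.39 ± 0.12 (adjusted p = 0.0495). The first call was lost in 5 and the second in 8 of 9 fits that left out 1 library.

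**Figure D5:**
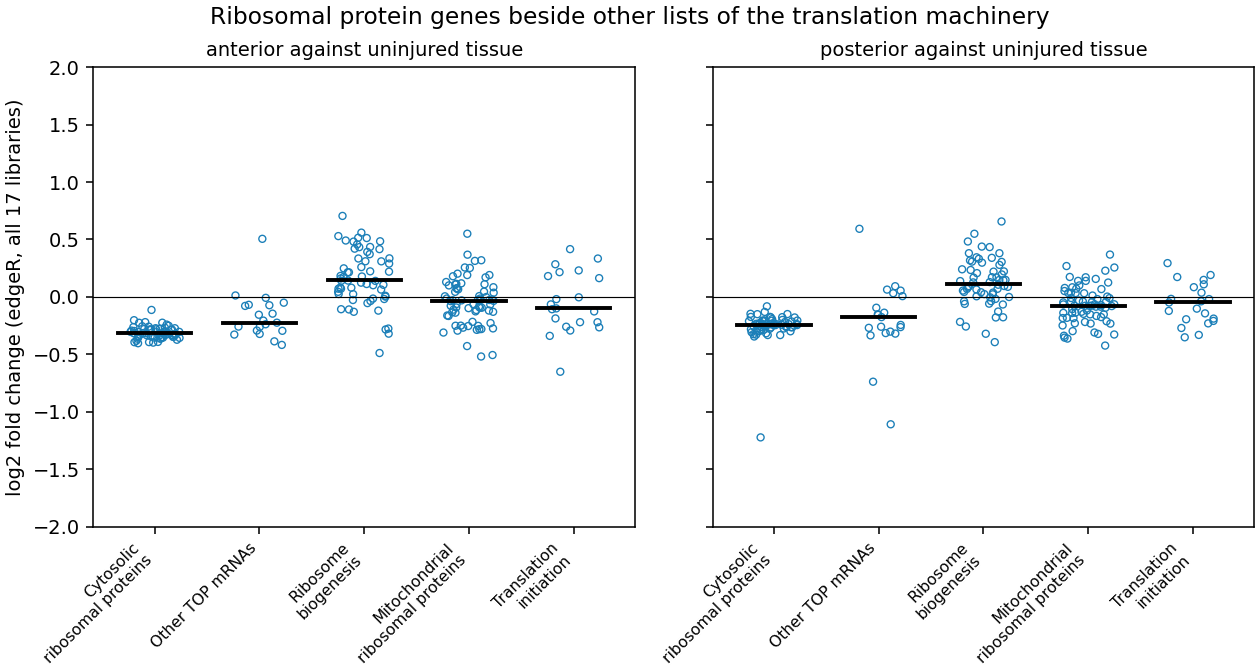
edgeR log2 fold change of single genes (circles) in 5 lists of the translation machinery, for anterior (left) and posterior (right) blastemas against uninjured tissue, with all 17 libraries; bars are medians. Ribosomal proteins have medians of -0.32 and -0.24 and assembly genes of 0.15 and 0.12; RPL3L at -5.21 and EEF1A2 at -5.28 lie outside the left axis.

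The mitochondrial ribosome, which translates the mitochondrial mRNAs, has its own proteins. Its 71 listed genes had medians of -0.04 in anterior and -0.08 in posterior against uninjured tissue. With all libraries 0 were called. Without uninjured replicate 1 and inhibitor replicate 5, 8 were called higher and 7 lower in anterior blastemas, against 12.1% and 10.7% of all genes. In posterior blastemas 6 were called higher and 2 lower, against 9.35% and 6.36% of all genes. With the inhibitor, and with all libraries, 61 of 71 were above 0, with a median of 0.14, against 49.7% of all genes above 0. By edgeR 2 of the 71 were called higher, no more than the 4.13% of all genes. MRPL30 was at 16.01, 17.66, 17.02 and 15.02 CPM in untreated and at 21.50, 20.68, 22.63, 17.64 and 21.08 CPM in inhibitor-treated posterior blastemas, where replicate 4 alone overlapped, with a log2 fold change of 0.33 ± 0.08 (SE, adjusted p = 0.0293). MRPL13 had a log2 fold change of 0.33 ± 0.09 (adjusted p = 0.0411). Each call was lost in 7 of 9 fits that left out 1 library. Translation initiation factors, 21 of 23 listed, had medians of -0.10, -0.05, -0.02 and 0.06 in the 4 comparisons. With all libraries 0 were called in each. Without uninjured replicate 1 and inhibitor replicate 5, 7 were called higher and 4 lower in anterior against uninjured tissue. In posterior against uninjured tissue 5 were called higher and 2 lower, and with the inhibitor 1 was called higher, where 7.1% of all genes were.

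Regulators of ribosome production, 24 of 26 listed, had 2 calls with all libraries. Both were higher with the inhibitor, where 4.13% of all genes were called higher and 3.99% lower. RHEB, the GTPase that activates mTOR, was at 52.3, 55.1, 60.2 and 66.3 CPM in untreated and at 71.5, 79.6, 82.9, 69.6 and 67.9 CPM in inhibitor-treated posterior blastemas. Its log2 fold change was 0.34 ± 0.09 (SE, adjusted p = 0.0386). RPS6KA3, an RSK kinase activated by ERK, had 0.42 ± 0.11 (adjusted p = 0.0365). These calls were lost in 6 and 7 of 9 fits that left out 1 library. MYCN, a transcription factor that drives ribosome production in growing tissue, was at 6.94, 1.53 and 3.46 CPM in uninjured and at 39.6, 28.1, 30.2 and 11.9 CPM in posterior blastemas. It was at 4.57, 5.10, 4.47, 23.7 and 2.57 CPM with the inhibitor, and replicate 4 alone lay inside the untreated range. The log2 fold change was 2.79 ± 0.75 (adjusted p = 0.0607) in posterior against uninjured tissue and -1.76 ± 0.60 (adjusted p = 0.0782) with the inhibitor, so neither was called with all libraries. Without uninjured replicate 1 the first became 3.46 (adjusted p = 0.0320), and without inhibitor replicate 4 the second became -2.72 (adjusted p = 0.00376). Over all fits that left out 1 library the adjusted p ran from 0.0320 to 0.193 and from 0.00376 to 0.200. Inhibitor replicate 4, highest in MYCN, had the lowest ribosomal protein offset of its group, -0.24. This is 1 library, and a link between MYCN and the offset was not tested.

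Many ribosomal protein genes host small nucleolar RNAs, the guides of ribosomal RNA modification, in their introns. In the RefSeq gene table of the axolotl, used for which genes lie within which, 22 of the 65 members (33.8%) spanned at least 1 snoRNA gene, with 47 such genes among them. Of 17250 tested protein-coding genes 109 (0.632%) did. RPS3 spanned 5 snoRNA genes, and RPL10, RPL13 and RPL17 spanned 4 each. Hosts and other members had nearly the same median log2 fold change, -0.31 and -0.32 in anterior against uninjured tissue and -0.08 and -0.07 with the inhibitor. RPL9, RPLP2, RPS24 and RPS25 overlapped another protein-coding gene in that table (LIAS, PIDD1, POLR3A and TRAPPC4), by the span of the whole gene. Without strand, reads in a stretch shared by both genes cannot be assigned to either. Whether the shared stretches touch exons, and so the counts, was not tested.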

How the data were processed

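Per the submitters' processing notes, the authors used Trimmomatic 0.39 and STAR 2.7.3a. The deposited values are unnormalized counts per gene. The genome build is not given in the sources used here. Of 3 count columns the unstranded one was read. The 4 totals of reads outside genes (14.2% to 16.4% of reads) were left out. Reads with several matches were 2.35% to 4.30%, so near-identical copies of a gene can lose reads.

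Genes passing filterByExpr (19398) were TMM-scaled (factors from 0.862 to 1.08). A single model of the 4 groups was then fitted in R 4.3.3 with the robust quasi-likelihood F test of edgeR 4.0.16. The test was also run on simulated data. There genes varied independently and changed more than most members did, so that run cannot tell how small shared changes are detected. P-values were adjusted over all these genes by Benjamini-Hochberg with a threshold of 0.05. CPM were computed from the deposited counts and the scaled library sizes, and deviations were taken on log2 CPM. Each SE is the size of the log2 fold change over the square root of its F, so it is not independent of p. DESeq2 1.42.0 was an alternative. Plots used matplotlib 3.10.9.

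Members and lists were chosen with earlier results of these data known. Named members were the 3 highest and 3 lowest fold changes of each comparison and a fixed set of paralogs and well-known proteins. The called genes of each list were also named. Members singled out by SD, and FAU, RACK1, EEF2 and MYCN, were added for description. Replicate libraries differed beyond sampling noise, with a chi-square of 66.3 to 650 per degree of freedom. Same-numbered libraries did not deviate together in every pair (correlations -0.243 to 0.304), and numbers were not taken as pairs in the reported fit. Library names of anterior and uninjured replicates 1 to 3 share stems. With 3 uninjured libraries these correlations cannot decide whether those libraries are pairs. The labels do not say that these are the same animals.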

Additional observations from a re-analysis of the deposited data

Results flagged for a closer look

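In groups of 4 or 5 libraries, the highest and lowest value of 26 quantities were checked for a gap from the rest that exceeds Dixon's critical value. Chance flags about 1 in 20 groups. Of 78 pairs of a quantity and a group, 18 stood out, and 16 of these were inhibitor replicate 5; since members move as a block these are close to 1 observation. In that library the ribosomal protein share was 6.13% and the ratio of large to small subunit CPM was 1.27. Among large subunit genes, RPL3 was at 3146, RPL5 at 1275, RPL7 at 1672, RPL7L1 at 182, RPL10 at 1244, RPL11 at 1630, RPL22 at 470, RPL26L1 at 761 and RPL38 at 249 CPM. The stalk gene RPLP1 was at 1133 CPM. Among small subunit genes, RPS2 was at 2934, RPS6 at 1377, RPS14 at 1580 and RPS19 at 572 CPM. Each of these values was the highest of its group. The same library had 4.30% of its reads with several matches, against 3.22% to 3.30% in the other inhibitor libraries. This share also differed between groups. It was 2.35% to 2.57% in untreated posterior and 2.47% to 3.15% in anterior libraries, and 3.50%, 3.83% and 4.10% in uninjured replicates 1 to 3. The part of such reads in the ribosomal protein levels was not tested. Outside that library, RPL3L was at 38.2 CPM in inhibitor replicate 3 and RPL7L1 at 162 CPM in anterior replicate 4, each above the rest of its group.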

How the results depend on the processing

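The number of members called in anterior against uninjured tissue, 0 in the reported fit, was 1 with DESeq2 and 1 with the replicate number as a block, RPL3L both times. Each block fit held only the groups compared and the replicate numbers they share. Outside anterior against uninjured tissue, same-numbered libraries share no name stem, so there the block has no known basis. The block gave medians of -0.36, -0.27, 0.10 and -0.17 in the 4 comparisons, and 0 calls in the other 3. In anterior against uninjured tissue the number called ranged from 0 to 47 when single libraries were left out, 47 being without uninjured replicate 1. It was 61 without that library and inhibitor replicate 5. Without both, posterior against uninjured tissue gave 40, and without uninjured replicate 1 alone it gave 0. Shares of all reads in place of counts in genes were 4.52% in anterior, 4.87% in posterior and 4.34% in inhibitor-treated blastemas. In the other 163 recomputed values of this kind the count or median stayed within 1.5 times or within the spread between libraries. That spread was wide against uninjured tissue. With single libraries left out, the median over members ran from -0.507 to -0.0703 in anterior and from -0.432 to 0.00465 in posterior blastemas. Of single genes, 29 values changed sign, all near 0. With total counts, RPS2 was at 0.0260 and 0.0185 in anterior and posterior against uninjured tissue, RPL36 at 0.0789 and RPL38 at 0.0377 in posterior against uninjured, and RPL3 at -0.0747 and RPS23 at -0.0050 with the inhibitor. With the replicate block the last 2 were at -0.11 and -0.0023, and without both libraries that stood apart at -0.12 and -0.0123. In posterior against anterior blastemas, RPLP1 was at -0.0048 and RPS26 at -0.0037 with no filter, and at -0.0059 and -0.0045 with a filter of 1 CPM in 3 libraries. Leaving out single libraries gave RPL35A -0.38 to 0.0404 in anterior against uninjured, RPL36 -0.23 to 0.0279 and RPL38 -0.30 to 0.0910 in posterior against uninjured, RPLP1 -0.0418 to 0.0451 and RPS26 -0.0470 to 0.0371 in posterior against anterior, and RPL3 -0.11 to 0.0527 and RPS23 -0.0038 to 0.13 with the inhibitor. The cause was not tested. Members other than RPL3L had at least 4909 reads in each library.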
